A study of Mus musculus with 8 samples.

Results

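The 10 genes described here belong to the insulin-like growth factor (IGF) system: the ligand gene Igf1, the receptor genes Igf1r and Igf2r, the adaptor gene Irs1 and the binding protein genes Igfbp2 to Igfbp7. They were listed by symbol, and where a gene had several probe sets the brightest on average was read. Of the 10 genes, 8 could be read from a probe set naming no other gene, among 17097 such genes in all. Igf2r was named only by a probe set that also carries Airn, and no probe set was named for Igfbp7, so that these 2 genes were not analysed here.

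RNA was measured on Affymetrix arrays in tumour cells sorted for α6-integrin and CD34 from skin squamous cell carcinomas (SCC) grown in nude mice, 4 arrays from poorly differentiated tumours (PD-SCC, written PD/S-SCC in the labels) and 4 from well differentiated ones (WD-SCC). The tumours arose in K14-HPV16 mice of strain FVB/C57/Bl6, in which the keratin 14 promoter drives papillomavirus genes in basal keratinocytes, either spontaneously or after DMBA-TPA, and the labels do not say which lineage had which origin. All groups carry that transgene and all were passed on by orthotopic grafting, with suspensions depleted of haematopoietic and endothelial cells before the sort. Nude mice lack mature T cells and keep their own fibroblasts, endothelium and myeloid cells. The 3 tumour lineages OT7, OT14 and OT15 gave both stages, OT7 with 2 arrays a stage and the other two with 1, and the age of the animals is not given. The labels call the OT7 arrays biological replicates without saying whether separate tumours were used. The p-values therefore describe only how far these arrays vary, and part of that variation may be technical.

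IGF1 and IGF2 are secreted growth factors that activate the IGF1 receptor, a tyrosine kinase. The receptor phosphorylates adaptors such as IRS1, which engage PI3-kinase and AKT. The mannose 6-phosphate receptor encoded by Igf2r takes up IGF2 for degradation. The secreted IGF binding proteins hold the ligands in the extracellular space, where they can block receptor access or prolong a ligand's life, and proteases release the ligands again. In skin, IGF1 comes mainly from dermal fibroblasts, while keratinocytes carry the receptor.

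Of the 8 measured genes, Igfbp4 and Igfbp6 rose in PD-SCC and Igfbp3 fell, and Igf1, Igf1r, Irs1, Igfbp2 and Igfbp5 did not pass the test. Without the lineage block, or with lineage as a random block, the called genes were Igf1r and Igfbp4. Over 21 alternatives Igfbp4 was called in 20, Igfbp3 in 9, Igfbp6 in 5 and Igf1r in 4. These alternatives are not all distinct. Leaving out either OT14 array gives the same stage fit as leaving out lineage OT14, and likewise for OT15. Counts over the alternatives, here and below, include these repeats, among them the call of Igfbp3 without OT14. Stages were compared with limma, two-sided, with a block for lineage, Benjamini-Hochberg adjustment over all 17097 genes and a threshold of 0.05. The test with the block called 3 of the 8 genes, 2 higher and 1 lower, against a background of 12.6% of all genes, 7.78% higher and 4.81% lower. The median difference of the 8 genes was 0.27 on the log2 scale, beside -0.06 for all genes. The sign of the difference was the same in the 3 lineages for 6 of the 8 genes, against 51.3% of all genes. Values are RMA log2 units throughout, and differences are PD-SCC minus WD-SCC.

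The stretches of 250 bases upstream of the RefSeq start sites of the 3 genes past the threshold are shown because these are the genes whose RNA differed between stages. They are given 5′ to 3′ on the gene's strand from the RefSeq promoter table of build GRCm38.p6, in which all 8 measured genes matched. Igfbp4 lies on the plus strand at chr11:99040994-99041243, Igfbp6 on the plus strand at chr15:102143936-102144185, and Igfbp3 on the minus strand at chr11:7213924-7214173. The starts listed for Igfbp4 and Igfbp3 lie inside the full RefSeq span of their genes, and gene positions given below are of the same build. Capitals mark matches on either strand to the TATA box TATAAA, the CCAAT box CCAAT, the GC box GGGCGG or the AP-1 site TGANTCA, none of which overlapped another here.
Igfbp4: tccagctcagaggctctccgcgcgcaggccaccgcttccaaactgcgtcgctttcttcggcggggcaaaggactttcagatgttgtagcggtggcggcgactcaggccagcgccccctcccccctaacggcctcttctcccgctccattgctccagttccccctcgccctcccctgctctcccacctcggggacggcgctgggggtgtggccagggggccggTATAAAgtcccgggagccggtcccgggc
Igfbp6: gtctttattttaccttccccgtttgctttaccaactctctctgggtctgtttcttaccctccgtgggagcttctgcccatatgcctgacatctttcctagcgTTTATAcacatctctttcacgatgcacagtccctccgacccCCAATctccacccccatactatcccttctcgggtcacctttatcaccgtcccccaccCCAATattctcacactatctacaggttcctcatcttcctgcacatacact
Igfbp3: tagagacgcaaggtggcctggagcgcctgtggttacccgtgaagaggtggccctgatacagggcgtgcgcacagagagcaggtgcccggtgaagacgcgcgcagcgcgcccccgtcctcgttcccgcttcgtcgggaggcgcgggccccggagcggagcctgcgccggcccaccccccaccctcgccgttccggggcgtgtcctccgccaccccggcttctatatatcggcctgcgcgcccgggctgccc
Igfbp4 held a TATA box whose first base lies 28 bases before the start. Igfbp6 held CCAAT boxes that begin 107 and 50 bases before the start, and a TATA box match on the opposite strand at 148. None of the 4 motifs was found in the Igfbp3 stretch by the letters given above. That stretch holds tatatat near its 3′ end, which the search for TATAAA does not match, so a TATA-like element is not excluded. Of 32851 stretches of the same length, 12.4% held a TATA box match, 33.8% a CCAAT box, 32.7% a GC box and 6.75% an AP-1 site. A match is a description of letters and not of binding.

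The sorted cells were checked against cell type markers first. Of 12 measured keratinocyte markers, all were above the highest of 15 bacterial control probe sets on each WD-SCC array, against 8 to 10 on the PD-SCC arrays. Their mean level was 4.24 to 5.42 on the PD-SCC arrays and 8.50 to 9.37 on the WD-SCC arrays, 9 of 12 fell, and Krt14, the basal keratin gene whose promoter defines the transgene, measured 4.39 to 7.02 in PD-SCC against 10.36 to 11.24 in WD-SCC. Trp63, the basal keratinocyte transcription factor gene, was above the control on 1 of 4 PD-SCC arrays. The sort marker gene Cd34 was above the control on all 4 PD-SCC arrays and on 3 of 4 WD-SCC arrays. The exception was the OT15 WD-SCC array, so results are also given without OT15. The bacterial control lay between 3.61 and 3.81 on PD-SCC arrays and between 3.82 and 4.37 on WD-SCC arrays. In sorted bulk RNA, fewer cells of a type and less RNA per cell cannot be told apart.

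Igf1, the ligand gene (chr10:87858265-87937047), was high on a single array. It measured 4.30 and 4.08 on the OT7 PD-SCC arrays, 4.44 on the OT14 and 3.99 on the OT15 PD-SCC array, against 4.48 and 8.63 on the OT7, 4.54 on the OT14 and 5.18 on the OT15 WD-SCC array. The value of 8.63 belongs to the OT7 WD-SCC array that has no replicate number in the labels. The stages did not overlap, with 4.44 as the highest PD-SCC value and 4.48 as the lowest WD-SCC value, and the difference of -1.51 ± 0.95 (SE, n = 4 a stage) was not past the threshold (limma adjusted p = 0.32). Without the unnumbered OT7 WD-SCC array it was -0.51 (adjusted p = 0.229). The other 3 probe sets of Igf1 were under the control on all 8 arrays.

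Igf1r (chr7:67952257-68233668), which encodes the receptor of both IGFs, was higher on every PD-SCC array than on any WD-SCC array but missed the threshold. It measured 7.03 and 7.50 on the OT7, 7.10 on the OT14 and 7.12 on the OT15 PD-SCC array, against 5.97 and 5.32 on the OT7, 6.58 on the OT14 and 6.54 on the OT15 WD-SCC array. The PD-SCC arrays lay close together, at 7.19 ± 0.21, and the WD-SCC arrays at 6.10 ± 0.59 (SD, n = 4 each). The difference was 1.09 ± 0.29 SE, with a 95% interval of 0.38 to 1.79 and a limma adjusted p of 0.0641, and without OT15 it was 1.25 (adjusted p = 0.0928). It was past the threshold without the lineage block (adjusted p = 0.0463), with lineage as a random block (0.0447), with dim genes left out (0.0351) and with arrays scaled to their 75th percentile (0.046). The remaining 3 probe sets of Igf1r differed less. Their differences were 0.83, 0.61 and 0.04 (limma adjusted p over all probe sets = 0.116, 0.296 and 0.917), and the last of them was lower in OT7 PD-SCC by a difference of -0.36. Groups that do not overlap were seen for 4 of the 8 genes, against 24.1% of all genes. They were Igf1r, Igfbp4, Igf1 and Igfbp5. For Igf1 the gap was only between 4.44 and 4.48, and Igfbp5 was above the control on 1 WD-SCC array only. The control itself did not overlap between stages, at 3.61 to 3.81 in PD-SCC and 3.82 to 4.37 in WD-SCC. The count is therefore partly one of values near background.

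Irs1 (chr1:82233105-82291439), the adaptor that links the activated receptor to PI3-kinase, was close to the control in both stages. Its values ran between 3.81 and 4.38 on the PD-SCC arrays and between 3.66 and 4.62 on the WD-SCC arrays, above the control on 3 and 1 of 4 arrays. The difference was 0.10 ± 0.25 SE with a 95% interval of -0.52 to 0.72 (limma adjusted p = 0.803).

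**Figure D1:**
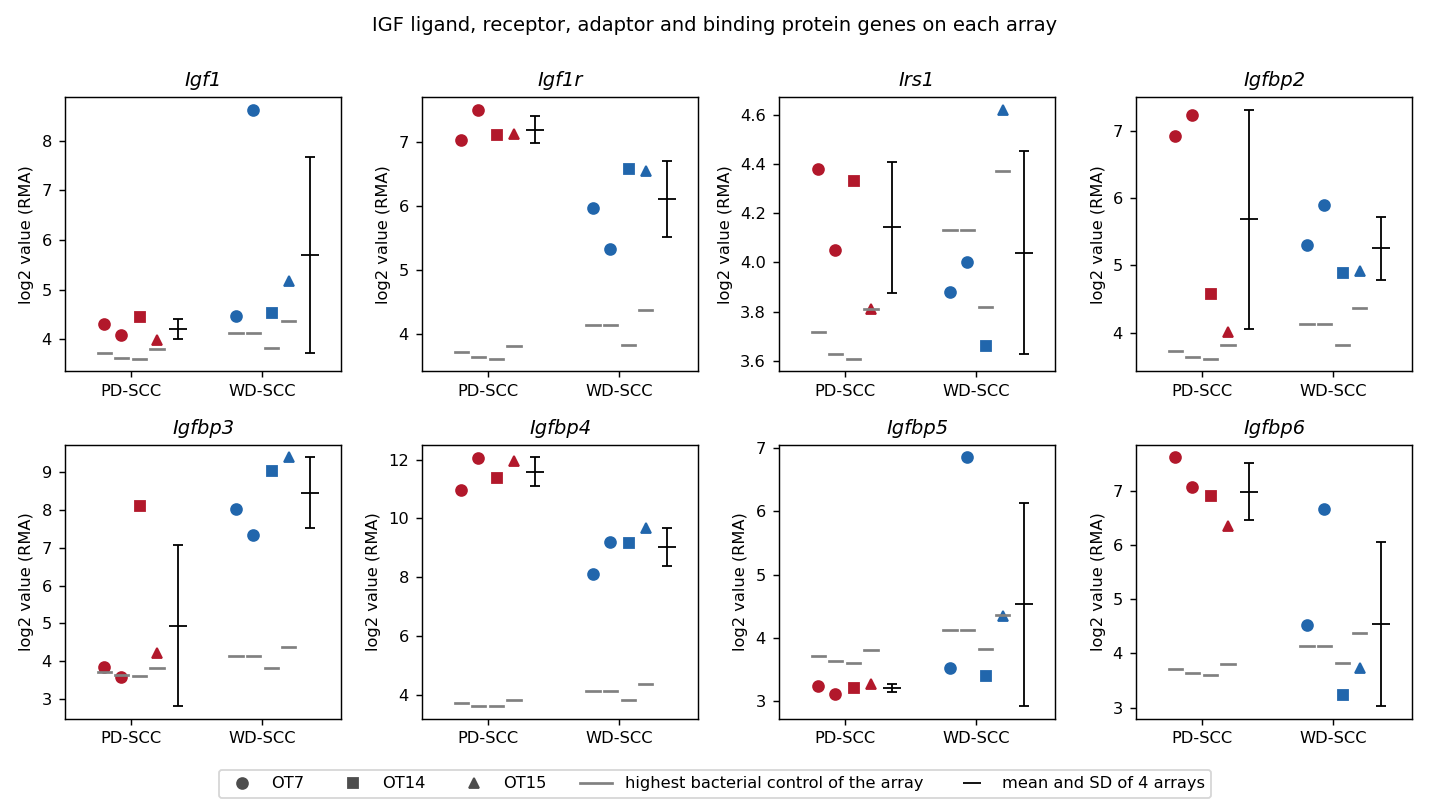
RMA log2 value of each measured gene on each array (vertical axes), PD-SCC left and WD-SCC right, with lineages as symbols, the array's highest bacterial control as a short grey line and the mean with SD of 4 arrays as a black bar. Igfbp4 separates the stages in every lineage, Igfbp3 stays at 8.11 on the OT14 PD-SCC array, and Igf1 and Igfbp5 are high on 1 OT7 WD-SCC array, at 8.63 and 6.86.

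Igfbp4 (chr11:99040005-99052655), which encodes a binding protein known mainly as an inhibitor of IGF action, rose in PD-SCC. It measured 10.98 and 12.04 on the OT7, 11.38 on the OT14 and 11.95 on the OT15 PD-SCC array, against 8.12 and 9.21 on the OT7, 9.15 on the OT14 and 9.66 on the OT15 WD-SCC array. Every PD-SCC array lay above every WD-SCC array. The means were 11.59 ± 0.50 in PD-SCC and 9.03 ± 0.65 in WD-SCC (SD, n = 4 each). The difference was 2.56 ± 0.35 SE, a 5.88-fold higher level in PD-SCC (95% interval 1.70 to 3.41 on the log2 scale, limma adjusted p = 0.0116).

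Igfbp4 was higher in PD-SCC in each lineage and by each probe set. The OT7 difference was 2.84, that of OT14 2.24 and that of OT15 2.30 (limma adjusted p = 0.0654, 0.345 and 0.256), and the test of a difference between lineages gave an adjusted p of 0.944. All 6 Igfbp4 probe sets rose, by differences of 1.88 to 3.28 and limma adjusted p of 0.0157 to 0.0269 over all probe sets, and in none of them did the stages overlap. These probe sets read one transcript family and are not independent. The rise was past the threshold without any 1 array (adjusted p = 0.0225 to 0.0388), without OT15 it was 2.64 (adjusted p = 0.0365), and among 21 alternatives it missed only in the paired test on the 3 lineage means (adjusted p = 0.275).

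**Figure D2:**
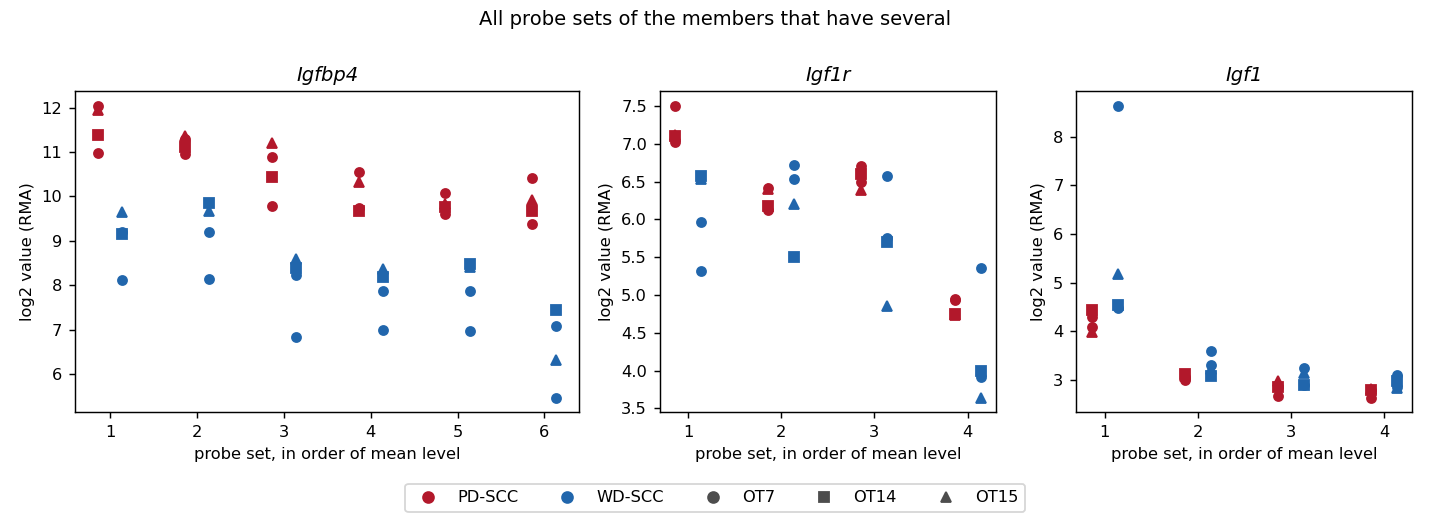
RMA log2 values of every probe set of Igfbp4, Igf1r and Igf1 (vertical axes), probe sets ordered by mean level along the horizontal axes, PD-SCC in red left of WD-SCC in blue, with lineages as symbols. The 6 Igfbp4 probe sets separate the stages, only the first of the 4 Igf1r probe sets does so, and the 3 dimmer Igf1 probe sets lie under the bacterial control.

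Igfbp6 (chr15:102144186-102149512), which encodes a binding protein that prefers IGF2 over IGF1, rose as well. It measured 7.62 and 7.06 on the OT7, 6.91 on the OT14 and 6.35 on the OT15 PD-SCC array, against 4.52 and 6.66 on the OT7, 3.24 on the OT14 and 3.73 on the OT15 WD-SCC array. The OT14 and OT15 WD-SCC values were under the control. The unnumbered OT7 WD-SCC array, at 6.66, overlapped the PD-SCC arrays, above OT15 at 6.35. The means were 6.98 ± 0.52 in PD-SCC and 4.54 ± 1.51 in WD-SCC (SD, n = 4 each). The difference as fitted was 2.44 ± 0.57 SE, a 5.44-fold higher level in PD-SCC (95% interval 1.04 to 3.85, limma adjusted p = 0.0468). This fold takes in the OT14 and OT15 WD-SCC values, and would be smaller with the control in their place.

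In each lineage Igfbp6 was higher in PD-SCC, by 1.75 in OT7 and, counted from the control in place of the dim WD-SCC values, by at least 3.09 in OT14 and at least 1.98 in OT15 (limma adjusted p as fitted = 0.252, 0.285 and 0.348). The call lay close to the threshold. Without the unnumbered OT7 WD-SCC array the difference was 3.01 with an adjusted p of 0.00795, and without any other 1 array the adjusted p was 0.086 to 0.122, where the OT15 arrays gave 2.39 and 0.122. Without the lineage block it was 0.0611, with cyclic loess 0.0807, and adjusted over all probe sets 0.0579. Over its 21 alternatives the difference ran between 2.04 and 3.14, always higher in PD-SCC.

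Igfbp3 (chr11:7206086-7215498), whose protein is the main carrier of IGFs in serum and which basal keratinocytes also express, fell in PD-SCC. It measured 3.85 and 3.58 on the OT7, 8.11 on the OT14 and 4.23 on the OT15 PD-SCC array, against 8.03 and 7.35 on the OT7, 9.04 on the OT14 and 9.40 on the OT15 WD-SCC array. The OT7 and OT15 PD-SCC values lay close to their bacterial controls of 3.63 to 3.81, and the OT14 PD-SCC value lay inside the WD-SCC range. The means were 4.94 ± 2.13 in PD-SCC and 8.46 ± 0.94 in WD-SCC (SD, n = 4 each). The difference over all lineages was -3.51 ± 0.67 SE, an 11.4-fold lower level in PD-SCC (95% interval -5.18 to -1.85, limma adjusted p = 0.0289).

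Igfbp3 fell by 3.98 in OT7 (adjusted p = 0.0172) and by 5.17 in OT15 (adjusted p = 0.0384), while the difference in OT14 was -0.93 (adjusted p = 0.461). The falls in OT7 and OT15 rest on PD-SCC values close to or under the control, so that their size is not exact. The test of a difference between lineages gave a limma adjusted p of 0.219, not past the threshold. OT14 and OT15 have 1 array a stage. The p-values within these lineages, here and for the other genes, therefore rest on the spread of the OT7 arrays and do not measure variation within OT14 or OT15. The limma tests within lineages called 1 of the 8 genes in OT7, against 9.07% of all genes, and 1 in OT15, against 1.33%, Igfbp3 in both. They called 0 in OT14, against 0.842%. Without OT14 the Igfbp3 difference was -4.37 (adjusted p = 0.0147). Without OT15 it was -2.96 (adjusted p = 0.0749), without any 1 OT7 array the adjusted p was 0.0645 to 0.0887, without lineage OT7 0.303, and without the lineage block 0.0627.

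**Figure D3:**
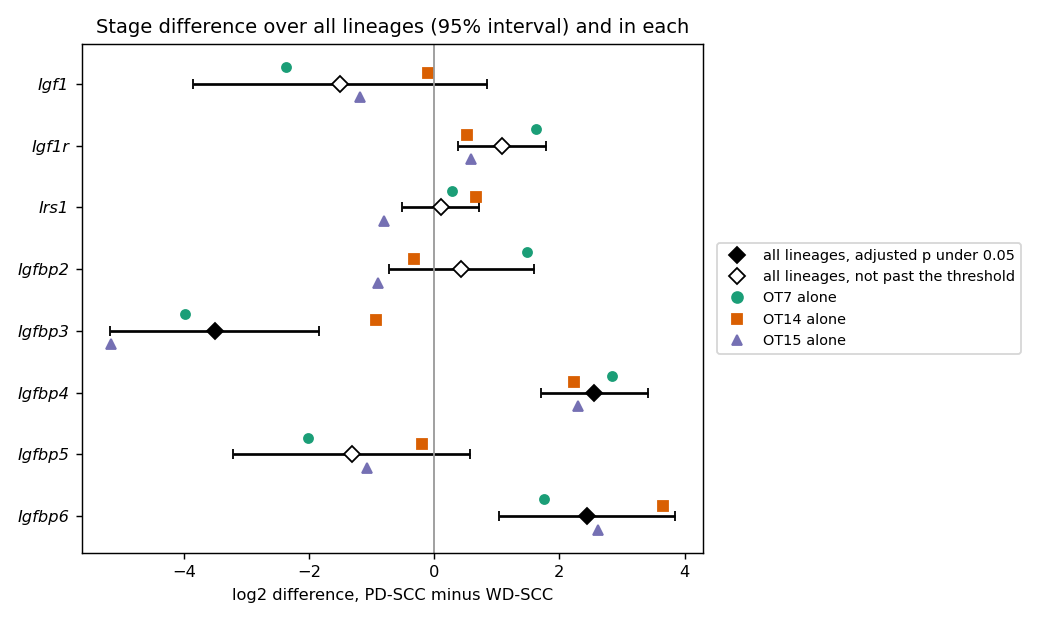
Fitted difference in log2 value, PD-SCC minus WD-SCC (horizontal axis), for each gene over all lineages as a diamond with its 95% interval, filled where the adjusted p is under 0.05, and for each lineage alone as coloured symbols. Igfbp4 and Igfbp6 lie right of 0 in every lineage, and Igfbp3 ranges from -5.17 in OT15 to -0.93 in OT14.

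Igfbp2 (chr1:72824480-72852474), which encodes a binding protein abundant in embryonic tissues and many tumours, split by lineage. It measured 6.93 and 7.24 on the OT7, 4.57 on the OT14 and 4.01 on the OT15 PD-SCC array, against 5.31 and 5.90 on the OT7, 4.89 on the OT14 and 4.92 on the OT15 WD-SCC array. OT7 PD-SCC lay above all WD-SCC arrays and the other PD-SCC arrays below all of them. The OT7 difference was 1.48, that of OT14 -0.32 and that of OT15 -0.90 (limma adjusted p = 0.0564, 0.904 and 0.333). The test of a difference between lineages gave a limma adjusted p of 0.278, and over all lineages the difference was 0.43 ± 0.47 SE (adjusted p = 0.55).

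Igfbp5 (chr1:72858065-72874865), the neighbour of Igfbp2, which encodes a binding protein that attaches to extracellular matrix, was above the control on a single array of the 8. It measured 3.11 to 3.27 in PD-SCC, against 3.52 and 6.86 on the OT7, 3.40 on the OT14 and 4.34 on the OT15 WD-SCC array. The array at 6.86 was the unnumbered OT7 WD-SCC array, the same one on which Igf1 was high. As all 4 PD-SCC and 3 of 4 WD-SCC values were under the control, no fold is given between the stages. The limma adjusted p was 0.285, and 0.163 without the unnumbered array.

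Without OT15 the stage difference was -1.61 for Igf1, 0.88 for Igfbp2 and 0.41 for Irs1, none of them past the threshold. Differences between lineages beside stage did not pass for any of the 8 genes. Over all 17097 genes 0 passed the limma F test at an adjusted p under 0.05, and at an unadjusted p under 0.05 there were 7.32% of all genes and 2 of the 8, Igfbp2 and Igfbp3 (adjusted p = 0.639 and 0.659). The test of whether the stage effect differs between lineages likewise called 0 genes, with 11.9% of all genes and 3 of the 8 at an unadjusted p under 0.05, the third being Irs1 (adjusted p = 0.363), with fitted differences of 0.28 for OT7, 0.66 for OT14 and -0.81 for OT15, in each of which the lower stage was at or under the control.

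Markers of other cell types were set beside these values, array by array. The mean level of 15 fibroblast markers was 4.92 to 5.69 on PD-SCC arrays and 4.25 to 6.97 on WD-SCC arrays, and none of them passed the stage test. The number above the control was 8 to 9 in PD-SCC and 6 to 10 in WD-SCC. Col1a1 and Dcn, a collagen gene and a proteoglycan gene of fibroblasts, were above it on all 8 arrays. Fbln2, Fap and Pi16 were under it on all 8. The highest mean, 6.97, was that of the unnumbered OT7 WD-SCC array, where Igf1, Igfbp5 and, among WD-SCC arrays, Igfbp6 were also highest. That array's part in Igf1 and Igfbp5 is given above by the values without it. For Igfbp6 the difference was larger without it. The lowest fibroblast mean, 4.25, was on the OT14 WD-SCC array, which had the lowest Igfbp6 value of 3.24. Other arrays went the other way. The OT7 PD-SCC array with the highest Igfbp6 value, 7.62, had the lowest PD-SCC fibroblast mean, 4.92. At fibroblast means of 5.68 on the OT15 WD-SCC and 5.69 on the OT14 PD-SCC array, Igfbp6 measured 3.73 and 6.91. The part of fibroblast RNA in these values was not tested.

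The mean level of 13 endothelial and pericyte markers was 3.72 to 4.10 on PD-SCC arrays and 4.20 to 6.17 on WD-SCC arrays, 3 of them fell, and the number above the control was 5 to 7 in PD-SCC against 7 to 11 in WD-SCC. Their mean was thus lower on every PD-SCC array than on any WD-SCC array. The same held for the keratinocyte, the haematopoietic, and the adipocyte and muscle markers, and for the bacterial control. The part of any of these in the fall of Igfbp3 was not tested. On the OT14 PD-SCC array Igfbp3 stood at 8.11 while the keratinocyte mean was 4.24, the lowest of the 8 arrays. On the OT15 PD-SCC array, with a keratinocyte mean of 4.32, Igfbp3 stood at 4.23. The 14 haematopoietic markers had means of 3.63 to 4.15 in PD-SCC and 4.17 to 5.03 in WD-SCC, with 4 to 9 above the control in both. Of these, 4 were under the control on all 8 arrays, Ptprc, which encodes CD45, among them. Cd68, Csf1r and Cd79a were above it on all 8 arrays. Only Cd68 fell, at 3.78 to 5.90 in PD-SCC against 7.48 to 7.91 in WD-SCC. The 8 adipocyte and muscle markers had means of 3.42 to 3.74 in PD-SCC and 4.19 to 4.35 in WD-SCC, with 2 to 3 above the control. Of these, 2 fell, Fabp4 and Ckm. Adipoq was under the control on all arrays, while Fabp4 measured 3.19 to 5.47 in PD-SCC against 6.51 to 9.45 in WD-SCC.

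**Figure D4:**
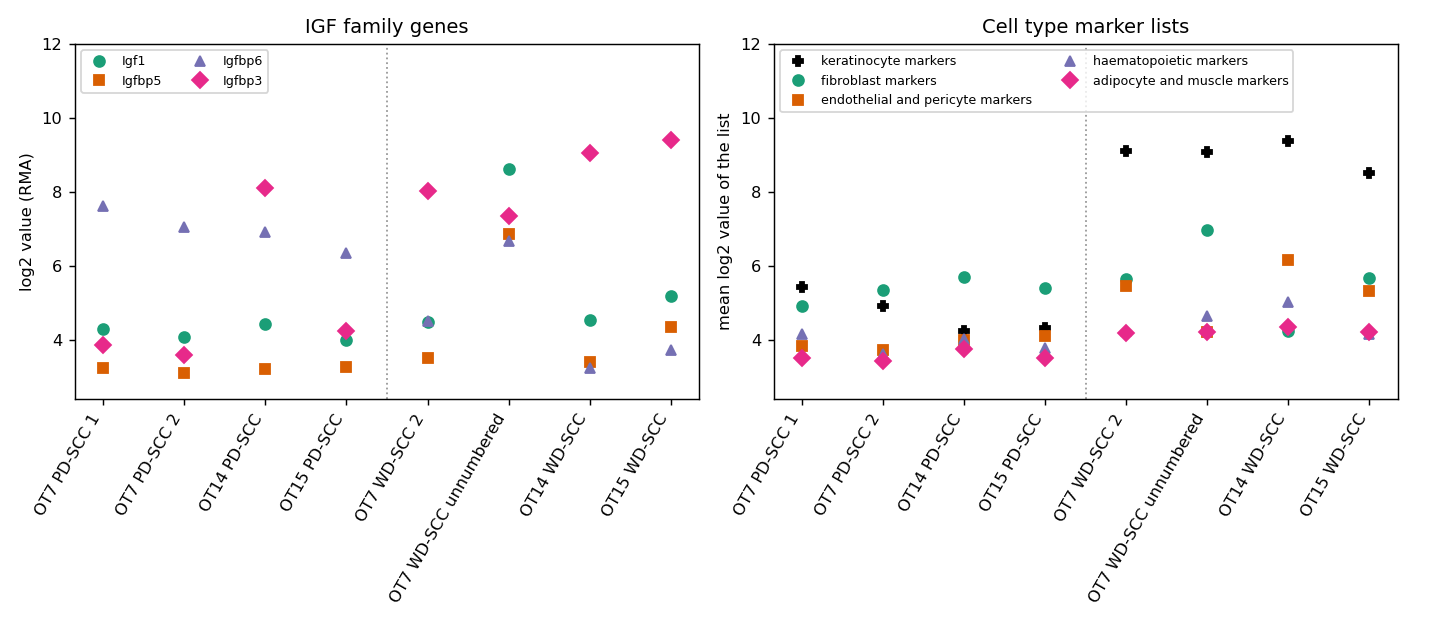
Left, RMA log2 values of Igf1, Igfbp5, Igfbp6 and Igfbp3 on each array, and right, the mean log2 value of each cell type marker list on the same arrays, with PD-SCC left of the dotted line. The unnumbered OT7 WD-SCC array has the highest fibroblast mean, 6.97, and the highest Igf1 and Igfbp5.

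The genes with the most similar profile over the 8 arrays were found by the root mean square (RMS) difference between log2 profiles centred on their own means, for the 3 genes with the widest range. Igfbp3 came closest to Pitx1, a homeobox gene (RMS 0.42), Slc38a4, an amino acid transporter gene (0.48), and Fabp4, a fatty acid binding protein gene of the adipocyte list (0.84). On the OT14 PD-SCC array Pitx1 measured 8.39, against 3.91, 4.09 and 5.38 on the other PD-SCC arrays. Igf1 came closest to Lum, a proteoglycan gene of the fibroblast list (0.26), Igfbp5 (0.30) and Tnfaip6 (0.32), all of which were highest on the unnumbered OT7 WD-SCC array, at 7.49, 6.86 and 6.97. Igfbp6 came closest to Pcolce, whose protein enhances procollagen processing (0.29), the non-coding gene Pvt1 (0.43) and Lhfpl2 (0.44). The 17096 genes compared share the same 8 arrays, so these are descriptions.

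Around the 8 genes, 5 lists of the IGF and insulin pathway held 61 genes, of which 53 were measured. The stage test called 8 of the 53, or 15.1%, beside 12.6% of all genes, 3 higher and 5 lower, with a median difference of -0.08 beside -0.06 for all genes. The share of called genes was thus near the background in this test. With dim genes left out, 7 of 34 tested pathway genes were called, a smaller share than the 2301 of 6709 genes called in all.

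Among 9 genes of IGFBP proteases and their inhibitors, 1 rose and 1 fell (median -0.21). Htra1, a secreted serine protease able to degrade binding proteins, measured 6.56 to 8.63 in PD-SCC against 3.61 to 5.54 in WD-SCC, a difference of 2.91 ± 0.40 SE (limma adjusted p = 0.0122). Ctsd, which encodes the lysosomal protease cathepsin D, able to cleave binding proteins in acid, measured 8.96 to 9.72 in PD-SCC against 10.91 to 11.39 in WD-SCC, a difference of -1.79 ± 0.18 SE (adjusted p = 0.00562). In both genes the stages did not overlap.

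Among 15 other receptors and adaptors, 2 fell and none rose (median -0.26). Socs2, a feedback inhibitor of growth hormone signalling, measured 3.94 to 5.77 in PD-SCC against 6.94 to 8.44 in WD-SCC and fell by 3.16 (SE 0.19, adjusted p = 0.0015). Grb10, an adaptor that dampens insulin and IGF1 receptor signalling, was under the control on all PD-SCC arrays, at 3.20 to 3.66 against 4.72 to 5.40 in WD-SCC. Counted from that control, its PD-SCC level was lower by at least 2.53-fold (limma adjusted p = 0.00821). A further set of 12 bacterial controls lay higher, and Grb10 exceeded these on 2 of 4 WD-SCC arrays.

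Among 22 genes of PI3-kinase, AKT and mTOR signalling, 2 rose and 1 fell (median 0.13). Akt1, the kinase gene downstream of PI3-kinase, measured 8.87 to 9.86 in PD-SCC against 7.30 to 8.59 in WD-SCC and rose by 1.35 (SE 0.16, adjusted p = 0.00797). Pik3r1, which encodes a regulatory subunit of PI3-kinase, measured 7.22 to 8.42 in PD-SCC against 5.48 to 6.50 in WD-SCC and rose by 2.05 (SE 0.36, adjusted p = 0.0221). The OT7 difference was 2.49, that of OT14 0.71 and that of OT15 2.5, and without any 1 of the OT7 arrays or without OT15 the adjusted p was 0.0527 to 0.0709. Foxo3, a transcription factor gene whose protein AKT inhibits, differed by -0.60 ± 0.14 SE (limma adjusted p = 0.046). Its call was lost in 18 of 21 alternatives, repeated fits included, among them the fit without the lineage block (adjusted p = 0.264).

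Of 5 other ligand and carrier genes, Ins2, an insulin gene, differed by -0.61 ± 0.14 SE (limma adjusted p = 0.0432, and 0.0526 with no block), at 3.75 to 4.01 in PD-SCC against 4.18 to 4.96 in WD-SCC, near the control. Igf2, named here after its values were seen because it encodes the second ligand, measured 3.39 to 3.87 in PD-SCC against 3.80 to 6.55 in WD-SCC and was above the control on 1 and 2 of 4 arrays. Neither of 2 genes of IGF2 mRNA-binding proteins passed, and Igf2bp1, with the smaller p, was under the control on all arrays (adjusted p = 0.132). Of the 8 called pathway genes, 5 were past the threshold without any 1 array, namely Ctsd, Htra1, Socs2, Grb10 and Akt1, and Ins2, Pik3r1 and Foxo3 were not. Without lineage OT7, which leaves 4 arrays, these 5 missed it too, with limma adjusted p of 0.0605 for Ctsd, 0.063 for Socs2, 0.0703 for Htra1, 0.114 for Grb10 and 0.12 for Akt1.

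**Figure D5:**
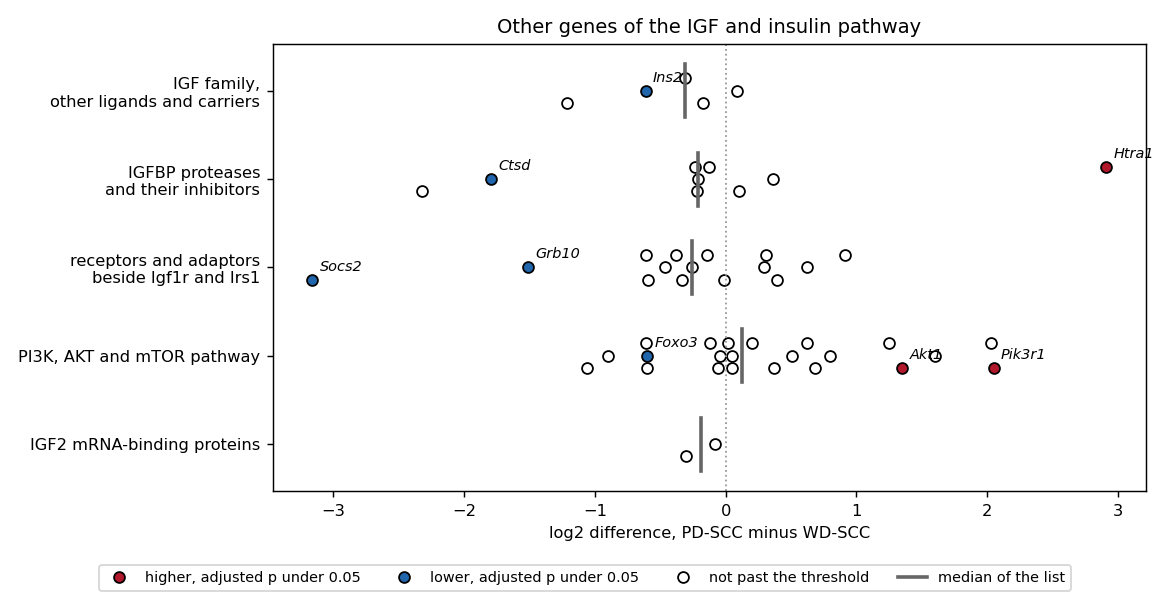
Difference in log2 value, PD-SCC minus WD-SCC (horizontal axis), for each measured gene of 5 IGF and insulin pathway lists (rows), red or blue where past the threshold, with the list's median as a grey bar. Htra1, Pik3r1 and Akt1 lie furthest right among the called genes and Socs2 furthest left, at -3.16.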

How the data were processed

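Sorted tumour cells were profiled on 8 single-colour arrays, 4 from PD-SCC and 4 from WD-SCC. The authors deposited log2 intensities, 1 per probe set on each array, which the submitters' processing notes credit to the affy package and RMA (background correction, quantile normalisation and probe summary). Versions are not stated in the sources used here. The number of arrays limits the precision. Of 45141 probe sets, 104 were controls, 28898 named 1 gene, 551 several and 15588 none in the platform annotation, and 99.1% of the 17097 genes matched the RefSeq table by Entrez number. Stage was tested with limma 3.58.1 (lmFit, eBayes) in R 4.3.3, with lineage from the labels as a fixed block. Across genes, the correlation between a lineage's deviations in PD-SCC and in WD-SCC was -0.04 for OT7, 0.02 for OT14 and 0.06 for OT15, so that the pairing rests on the labels. Within-lineage differences and the test between them used a fit of lineage by stage, whose residual spread comes from the OT7 arrays alone. The highest of 15 bacterial control probe sets on each array served as background, and a further 12 bacterial controls (r2) reached 3.82 to 4.28 on PD-SCC and 4.18 to 5.36 on WD-SCC arrays. Where no array of a stage exceeded the highest of the 15, a bound counted from it replaces the fold. Bounds counted from the r2 controls, which lay higher on every array, would be smaller. The fits were tested on simulated data, and figures used Python 3.11.15 with matplotlib 3.10.9.

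The genes, the pathway and marker lists and the tests were chosen with earlier results of these data known. Named were all 10 genes, up to 4 called genes of each pathway list by smallest p (otherwise the 1 with the smallest p), and the 3 nearest profiles of the 3 genes with the widest range. Cell type markers and Igf2 were named outside that rule. Alternatives were the block, averaging of the OT7 arrays, a paired test of the lineage means, a filter on dim genes, other uses of probe sets, other scalings, another variance prior, and leaving out each array or lineage.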

Additional observations from a re-analysis of the deposited data

Results flagged for a closer look

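Among 16 groups of 4 arrays, 1 gene and 1 stage each, chance alone would flag about 1 in 20 as holding an array far from the others, and 2 were flagged. Igf1 was 8.63 on the unnumbered OT7 WD-SCC array, and the gap to the nearest WD-SCC array took 0.83 of the range, just above the limit of 0.829. Igfbp3 was 8.11 on the OT14 PD-SCC array, with a gap of 0.857 of the range. The stage difference of 3 genes differed between lineages at an unadjusted p under 0.05, and none did after adjustment over all genes. The limma p was 0.00466 for Igfbp3 (adjusted p = 0.219), 0.0139 for Igfbp2 (adjusted p = 0.278) and 0.0316 for Irs1 (adjusted p = 0.363).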

How the results depend on the processing

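The stage test called 3 of the 8 genes. With no replicate block, that is with lineage left out of the fit, it called 2, Igf1r and Igfbp4, and with lineage as a random block the same number. Averaging the OT7 arrays left 1 call, leaving out lineage OT7 or lineage OT15 left 1 each, and the paired test on lineage means left 0, where it called 0 of 17097 genes. Without 1 array at a time the count was 1 to 2. The call that stayed in each of these, apart from the paired test, was Igfbp4. With the filter on dim genes 4 of 6 tested were called, beside 2301 of 6709 genes. With 75th percentile scaling 4 of the 8 were called, beside 2356 of 17097 genes. Igf1r, Igfbp3, Igfbp4, Igfbp5, Igfbp6 and Igf1 kept their sign in every alternative that tested them. The sign of Irs1 turned under 75th percentile scaling (-0.05), without lineage OT7 (-0.07) and without lineage OT14 (-0.09), with -0.09 to 0.41 without 1 array, and that of Igfbp2 turned without lineage OT7 (-0.61). The cause was not tested. Over all genes, 1331 were called higher and 823 lower, against 794 and 933 under cyclic loess and 1149 and 1207 under 75th percentile scaling, which moved the median of all genes to -0.21. The total of 2154 fell to 401 with the OT7 arrays averaged, to 246 without lineage OT7 and to 886 to 1689 without 1 array. Leaving out an OT14 or OT15 array leaves out its lineage, because the block then takes up the remaining array. The filter called a larger share of the genes it tested than the main test did of all genes. None of the 8 genes was called by the limma test of a stage effect that differs between lineages or by that of a lineage difference beside stage, in any alternative run. Over all genes these tests called 0, except 14 for the stage effect with the trended and robust prior and 2 for the lineage difference without the OT14 WD-SCC array. The filter kept 34 of the 53 pathway genes and called 7 of them. Of the pathway genes, where 8 were called, 7 to 10 were called under the filter, the other uses of probe sets and the other scalings. Of those 8 calls, 8 were lost without lineage OT7 and 8 in the paired test, 6 with the OT7 arrays averaged, 2 with no replicate block, and 2 to 3 without 1 array. Igfbp5 and Irs1 lie near background, which limits what their differences show.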
